A study of Mus musculus with 18 samples.

Results

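Nr4a1, Btg2, Jun, Fosl2 and Gadd45b are immediate early and stress response genes, and their ratios between male and female hearts were followed through chronic hypoxia in mice. All spots that the array's annotation gives to these symbols were taken, 11 of 28704 spots and 5 of 10225 named genes. Of these spots, 10 had a value on at least 1 array. The genes were chosen with their ratios on these arrays already known, so their values are a description and carry no p-value of their own.

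The samples were hearts of Mus musculus after chronic constant hypoxia (CCH), after chronic intermittent hypoxia (CIH) or from controls, each at 1, 2 and 4 weeks. Each of the 9 groups had 2 arrays, which makes 18 arrays and 6 arrays per condition. An array was a cDNA microarray to which labelled cDNA of a male heart (Cy5) and of a female heart (Cy3) was hybridised together, both hearts from the same condition and duration. Oxygen levels, strain, age and whether both arrays of a group used different animals are not given in the labels used here, so the spread between arrays may be technical.

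All values below are on the log2 scale, as channel ratios centred on the array's median, so a value is the difference between the sexes within an array and not a level. The labels name the dyes but not the direction of the ratio. It was read as likely male over female, because a spot of the Y-linked gene Eif2s3y had a ratio above 0 on 17 of 17 arrays with a value (1.36 to 3.54) and a further spot of that gene on 16 of 18. On CIH 4 weeks replicate 1 the first spot had no value and the further spot read -0.03. The direction on that array was therefore assumed from the others. All correlations between arrays over spots lay between -0.53 and 0.74, and 12 of 153 were under -0.3. Male cDNA was in Cy5 on all 18 arrays, so sex and dye cannot be told apart. Which of the sexes a transcript changed in cannot be read from a ratio, nor whether cells of a type were fewer or held less of the RNA. Ratios give no level, so the heart label could not be checked by marker level, and 8 of 18 heart muscle markers had a value. The title of CIH 1 week replicate 1 disagrees with its source names, which give CCH at 2 weeks. It was placed by its title, and the differences between CIH and the other conditions over the 3 durations are given without it as well.

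Immediate early genes are transcribed within minutes of a signal without the need for new protein synthesis, and their RNAs decay fast. In heart muscle, stretch, adrenergic signals and low oxygen are known to switch them on through MAP kinases and the transcription factors Srf and Creb. Jun and the Fos family protein Fosl2 join as AP-1, a dimer that binds DNA. Nr4a1 is a nuclear receptor that acts as a transcription factor, Btg2 an antiproliferative protein that guides mRNA deadenylation, and Gadd45b a small stress protein that binds kinases upstream of p38 and Jnk.

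The promoters of Nr4a1, Btg2 and Jun, whose ratios correlated across arrays, are shown first, with that of Gadd45b, whose ratio ran against theirs at 1 week. They are RefSeq sequences of mouse build GRCm38.p6, from 250 bases before to 50 bases after the start. Capitals mark matches to the cAMP response element (CRE, TGACGTCA), its half-site TGACG, the AP-1 site TGANTCA and the variant TGACATCA, searched on both strands, where a half-site inside a CRE counts as both. The region of Nr4a1 is chr15:101266596-101266895 on the plus strand, which lies inside the longer span that RefSeq gives the gene. The region of Btg2 is chr1:134079106-134079405 on the minus strand. That of Jun is chr4:95052173-95052472 on the minus strand, and that of Gadd45b chr10:80929841-80930140 on the plus strand.
Nr4a1: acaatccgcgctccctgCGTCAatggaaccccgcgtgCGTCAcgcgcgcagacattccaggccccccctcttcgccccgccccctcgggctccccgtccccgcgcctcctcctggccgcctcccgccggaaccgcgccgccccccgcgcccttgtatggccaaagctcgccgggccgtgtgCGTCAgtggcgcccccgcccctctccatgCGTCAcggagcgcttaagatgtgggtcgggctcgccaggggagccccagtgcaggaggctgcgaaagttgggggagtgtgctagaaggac
Btg2: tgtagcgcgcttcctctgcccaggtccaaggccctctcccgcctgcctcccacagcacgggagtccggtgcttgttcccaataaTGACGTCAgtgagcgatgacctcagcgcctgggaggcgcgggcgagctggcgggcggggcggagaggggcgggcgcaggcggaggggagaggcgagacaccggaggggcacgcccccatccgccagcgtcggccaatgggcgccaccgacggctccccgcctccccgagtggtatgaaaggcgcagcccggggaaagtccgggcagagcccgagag
Jun: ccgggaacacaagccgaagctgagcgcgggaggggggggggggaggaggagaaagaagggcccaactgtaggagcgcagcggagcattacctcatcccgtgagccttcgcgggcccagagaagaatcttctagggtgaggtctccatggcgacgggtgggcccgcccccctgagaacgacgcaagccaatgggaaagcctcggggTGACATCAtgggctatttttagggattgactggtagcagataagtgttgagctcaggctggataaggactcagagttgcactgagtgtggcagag
Gadd45b: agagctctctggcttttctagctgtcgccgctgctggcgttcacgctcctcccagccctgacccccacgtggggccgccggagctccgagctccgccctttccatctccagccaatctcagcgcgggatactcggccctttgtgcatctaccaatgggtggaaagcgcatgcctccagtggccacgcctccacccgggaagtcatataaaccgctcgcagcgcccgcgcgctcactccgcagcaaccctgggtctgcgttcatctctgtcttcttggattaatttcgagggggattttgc

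The Nr4a1 promoter held 4 CRE half-sites, with first bases at -233, -213, -69 and -40, counted in bases from the start. Of 32851 promoters of this length, 20.8% held a half-site. The Btg2 promoter held a whole CRE, a sequence bound by Creb, with its first base at -166. Of all promoters, 1.79% held one. The Jun promoter held TGACATCA, the form of the AP-1 site known from this promoter, at -45. Of all promoters, 3.62% held it. The Gadd45b promoter matched none of these letters and held a TATA box (TATAAA, at -46, in 13.6% of promoters) and 2 matches to CCAAT, which 37.4% of promoters held. It also held ACGTG, the core of the hypoxia response element, on both strands of 1 site at -185, as did 19.6% of promoters on either strand. CCAAT also stood in the Btg2 promoter (2 matches) and the Jun promoter (1). GCGTG, another form of the hypoxia response core, matched 2 times in Nr4a1, 2 in Gadd45b and 1 in Btg2, and 32.4% of promoters held it. The CArG box bound by Srf, in 1.63% of promoters, and TGANTCA, in 7.81%, were in none of the 5. The Fosl2 promoter (chr5:32136222-32136521, plus strand) held none of the 9 motifs searched. These matches are letters in a window and say nothing of binding.

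Gadd45b was the member with the smallest spread between arrays of a group (pooled SD 0.29, against 0.42 to 0.72 for the others). Its single measured spot was below 0 on 15 of 17 arrays. In CCH hearts it was 0.07 and -0.39 at 1 week, -0.63 and -0.74 at 2 weeks and -1.45 on the 1 array with a value at 4 weeks. In CIH hearts it was -0.76 and -0.89 at 1 week, -0.42 and -1.32 at 2 weeks and -1.16 and -0.71 at 4 weeks. In controls it was -0.49 and -0.27 at 1 week, 0.01 and -0.17 at 2 weeks and -0.40 and -0.54 at 4 weeks. At each of the 3 durations both CIH arrays lay below both control arrays, and the CCH arrays did so at 2 and 4 weeks but not at 1 week. Over all durations the conditions still overlapped, since 1 CIH array at 2 weeks was above 2 of the control arrays.

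The mean ratio of Gadd45b was -0.63 ± 0.55 in CCH hearts (SD, n = 5), -0.88 ± 0.33 in CIH hearts (n = 6) and -0.31 ± 0.21 in controls (n = 6). CIH and CCH differed by less than the SD of CCH, and CIH and control by more than the SD of either. As a difference of log2 ratios, CIH minus control was -0.57 ± 0.16 (SE) in limma's fit, and it was -0.59 without CIH 1 week replicate 1. Over 26 alternatives it ran from -0.72 to -0.41. By duration, CIH minus control was -0.44, -0.79 and -0.47 at 1, 2 and 4 weeks, and -0.51 at 1 week without that array. CCH minus control was -0.45 ± 0.18 (SE), made up of 0.22, -0.60 and -0.98 at 1, 2 and 4 weeks, the last from 1 CCH array. With arrays scaled to a common spread CCH minus control was -0.30. The size of the CCH difference thus came from the later durations. The plot of Gadd45b and Ddit3 by duration shows both patterns for Gadd45b. For Ddit3 the CIH and control arrays overlapped at 1 and 4 weeks.

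**Figure D1:**
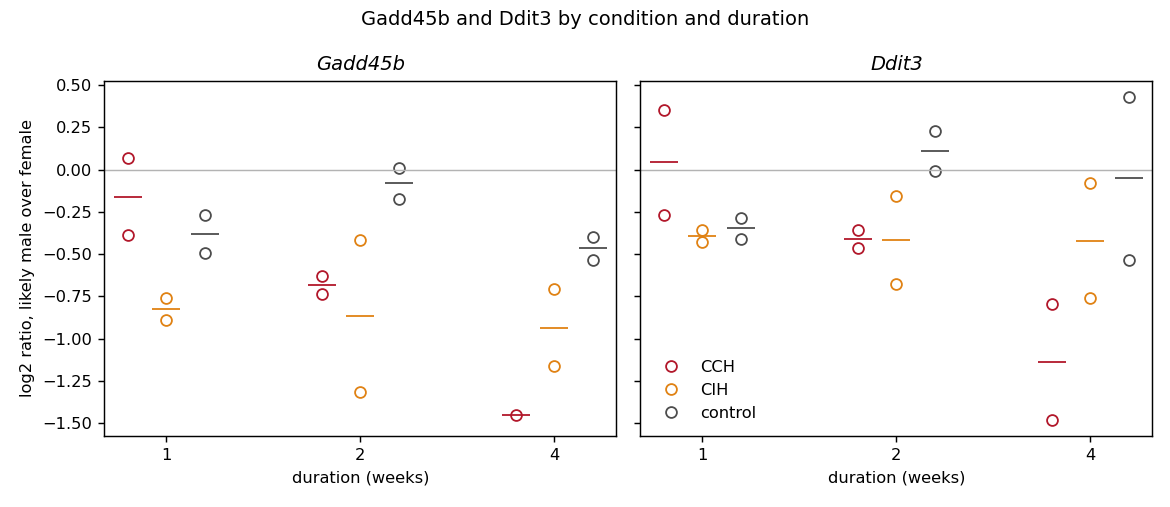
Log2 ratio (likely male over female) of Gadd45b and Ddit3 on each array, by duration in weeks, for CCH, CIH and control hearts, with lines at group means. For Gadd45b both CIH arrays lie below both controls at each duration, and the CCH arrays lie at 0.07 and -0.39 at 1 week and at -1.45 at 4 weeks.

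Over all arrays limma's mean of the 9 groups for Gadd45b was -0.65 ± 0.07 (SE), 1.57-fold lower in male than in female hearts as the direction is read here. In this comparison 27.7% of 10272 units (genes, or spots without a single symbol) passed an adjusted p of 0.05, and 2 of the 5 members were among them, Gadd45b and Fosl2. Since the members were chosen on these ratios, nothing is read from that share. The median of the members was -0.25, against -0.04 over all units. Gadd45b stayed called under 26 of 26 alternatives, between -0.70 and -0.55, whereas Fosl2 stayed called under 11 of 28. The alternatives reuse the arrays on which the members were chosen. They show dependence on the processing and are no further evidence for a member.

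Nr4a1, the nuclear receptor, had the widest spread of the set and values on 13 arrays. In CCH hearts its mean over spots was -1.70 and -0.21 at 1 week, 0.09 and -0.51 at 2 weeks and -1.12 on 1 array at 4 weeks. In CIH hearts it was 0.36 and 0.75 at 1 week, -0.40 on 1 array at 2 weeks and -0.34 on 1 array at 4 weeks. In controls it was 0.43 and -0.77 at 1 week, -0.40 on 1 array at 2 weeks and -0.003 on 1 array at 4 weeks. The highest value was on a 1-week CIH array and the lowest on a 1-week CCH array, and the 3 conditions overlapped. At 1 week both CIH arrays lay above both CCH arrays.

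By condition Nr4a1 averaged -0.69 ± 0.72 in CCH hearts (SD, n = 5), 0.09 ± 0.56 in CIH hearts (n = 4) and -0.18 ± 0.52 in controls (n = 4). Neighbours in the order CCH, control, CIH differed by less than an SD of either. CCH minus control was -0.57 ± 0.36 (SE), and CCH minus CIH -0.70 ± 0.36. Both rested in part on CCH 1 week replicate 1: without it they were -0.33 and -0.46. Without control 1 week replicate 1, CCH minus control was -0.37, and with arrays scaled to a common spread -0.20. CIH minus control was 0.13 ± 0.37, or 0.39 with arrays scaled to a common spread. The 2 spots of Nr4a1 had the same sign on 8 of 8 arrays that measured both (Pearson's r 0.87). The widest gap between them was on CIH 1 week replicate 2, with 0.02 at one spot and 1.48 at the other.

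Btg2, the antiproliferative gene, was measured by 3 spots and had a value on all 18 arrays. In CCH hearts the gene mean was -1.40 and -0.12 at 1 week, -0.36 and -0.73 at 2 weeks and 0.34 and -0.30 at 4 weeks. In CIH hearts it was 0.47 and 0.94 at 1 week, -0.25 and 0.08 at 2 weeks and -0.13 and 0.09 at 4 weeks. In controls it was -0.42 and -0.20 at 1 week, -0.38 and 0.18 at 2 weeks and -0.39 and 0.62 at 4 weeks. At 1 week both CIH arrays lay above both controls and both CCH arrays, and at 2 weeks both CCH arrays lay below both CIH arrays. The 2-week gap rests on a spot that at 2 weeks had values on the CCH arrays only (-1.35 and -1.14). At the spot with a value on all arrays, CCH read -0.17 and -0.28 at 2 weeks and CIH 0.01 and -0.41, so they overlapped. In the gene mean the other comparisons by duration overlapped.

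Btg2 averaged -0.43 ± 0.59 in CCH hearts, 0.20 ± 0.44 in CIH hearts and -0.10 ± 0.42 in controls (SD, n = 6 each). Neighbours in the order CCH, control, CIH differed by less than an SD of either. For the gene mean, CCH minus CIH was -0.63 ± 0.23 (SE), with 5 of 6 CCH arrays below the CIH mean of their duration, and it was -0.42 without CCH 1 week replicate 1. The spot with a value on all arrays averaged -0.27 in CCH and 0.20 in CIH hearts, a difference of -0.47. CCH minus control was -0.33 ± 0.23 and CIH minus control 0.30 ± 0.23. With single arrays left out, CCH minus control ran from -0.55 (without CCH 1 week replicate 2) to -0.12 (without CCH 1 week replicate 1), and CIH minus control from 0.13 (without control 4 weeks replicate 1) to 0.47 (without control 4 weeks replicate 2). The spots of Btg2 did not always agree. The 2 spots with most values correlated with r 0.69 over 17 arrays and had the same sign on 12. On CCH 2 weeks replicate 1 they were -0.17 and 0.42, and the third spot was -1.35.

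**Figure D2:**
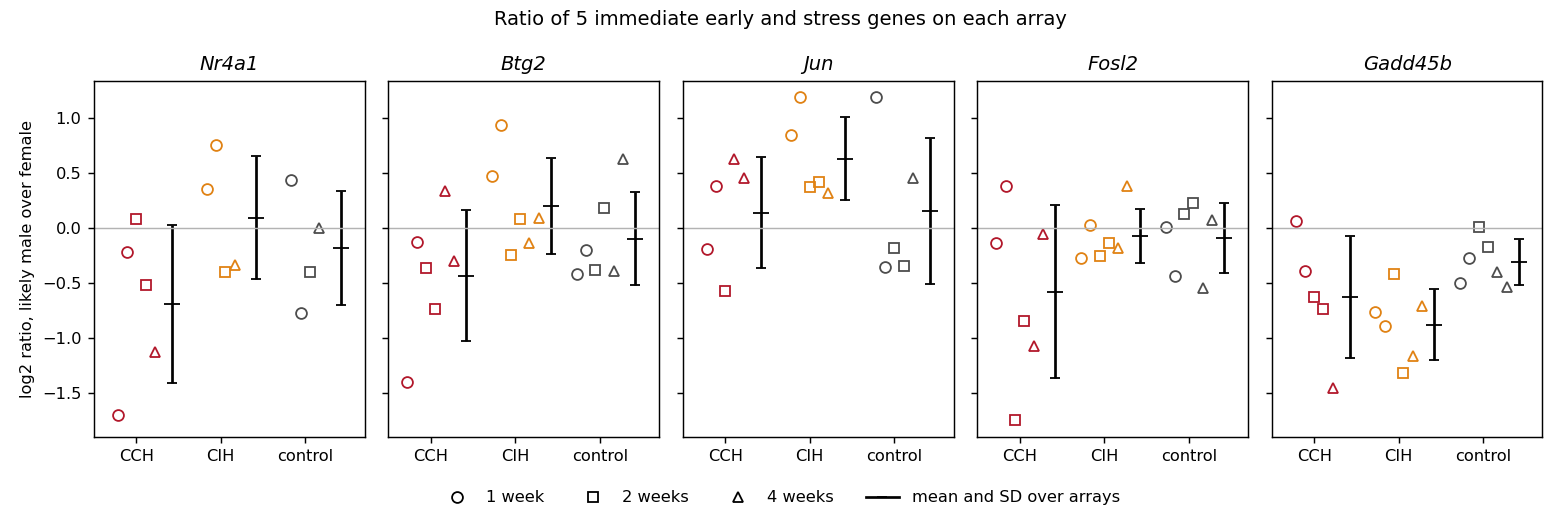
Log2 ratio (likely male over female) of the gene mean of each member on each array, in CCH, CIH and control hearts, with the marker showing the duration and the bar the mean and SD over arrays. The 6 CIH values of Gadd45b lie below 0, and Nr4a1 and Btg2 spread widely among the 1-week arrays.

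Jun, a subunit of AP-1, had values on 15 arrays and in effect 1 spot. Its other measured spot had a value on CCH 1 week replicate 1 only (0.12, against -0.51 at the main spot). In CCH hearts the gene mean was -0.19 and 0.38 at 1 week, -0.57 on 1 array at 2 weeks and 0.63 and 0.46 at 4 weeks. In CIH hearts it was 0.84 and 1.19 at 1 week, 0.37 and 0.42 at 2 weeks and 0.31 on 1 array at 4 weeks. In controls it was 1.18 and -0.35 at 1 week, -0.18 and -0.34 at 2 weeks and 0.45 on 1 array at 4 weeks. All 5 CIH arrays were above 0. At 1 week both lay above both CCH arrays, and at 2 weeks both lay above both controls. Control replicate 1 lay above CIH replicate 1 at 1 week. At 4 weeks the CIH array lay below the control array and both CCH arrays.

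Jun averaged 0.14 ± 0.51 in CCH hearts, 0.63 ± 0.38 in CIH hearts and 0.15 ± 0.66 in controls (SD, n = 5 each). CCH and control lay together, and CIH was above them by less than their SDs and by more than its own. CIH minus control was 0.37 ± 0.26 (SE). It turned on the 2 control arrays at 1 week, with 0.63 without replicate 1 and 0.12 without replicate 2. CCH minus CIH was -0.55 ± 0.26, and CCH minus control -0.18 ± 0.26. Over all arrays Jun stood at 0.27 ± 0.11, the only member of the 5 with a mean above 0.

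Fosl2, the Fos family partner of Jun, had 3 spots, of which 1 had no value. In CCH hearts the gene mean was -0.13 and 0.38 at 1 week, -1.74 and -0.85 at 2 weeks and -1.07 and -0.05 at 4 weeks. In CIH hearts it was -0.27 and 0.03 at 1 week, -0.26 and -0.14 at 2 weeks and -0.18 and 0.38 at 4 weeks. In controls it was 0.01 and -0.43 at 1 week, 0.12 and 0.22 at 2 weeks and -0.55 and 0.07 at 4 weeks. The lowest values were on CCH arrays at 2 and 4 weeks. At 2 weeks both CCH arrays and both CIH arrays lay below both controls, and at the other durations the conditions overlapped. At 2 weeks the spots behind the gene mean differed between CCH and the other conditions, as given below.

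Fosl2 averaged -0.58 ± 0.78 in CCH hearts, -0.07 ± 0.25 in CIH hearts and -0.09 ± 0.32 in controls (SD, n = 6 each). CIH and control lay together, and CCH was below them by less than its own SD and by more than that of the others. The gene mean of Fosl2 mixed 2 unlike spots. The spot with 8 arrays averaged -0.74, and the spot with 17 arrays 0.01. On 7 shared arrays the first was lower by 0.82 on average (r 0.57). At 2 weeks the first spot read -1.74 and -1.64 in the CCH hearts, and the second read -0.06 on the 1 CCH array where it had a value. The first spot had no value in CIH or control hearts at 2 weeks, and the second read 0.12 and 0.22 in controls. CCH minus control was -0.48 ± 0.21 (SE) for the gene mean and -0.02 for the spot with more arrays on its own. Without CCH 4 weeks replicate 1 the first value was -0.32. Over all arrays the 2 estimates were -0.25 and 0.01. The Fosl2 differences therefore depend on which spot is read.

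**Figure D3:**
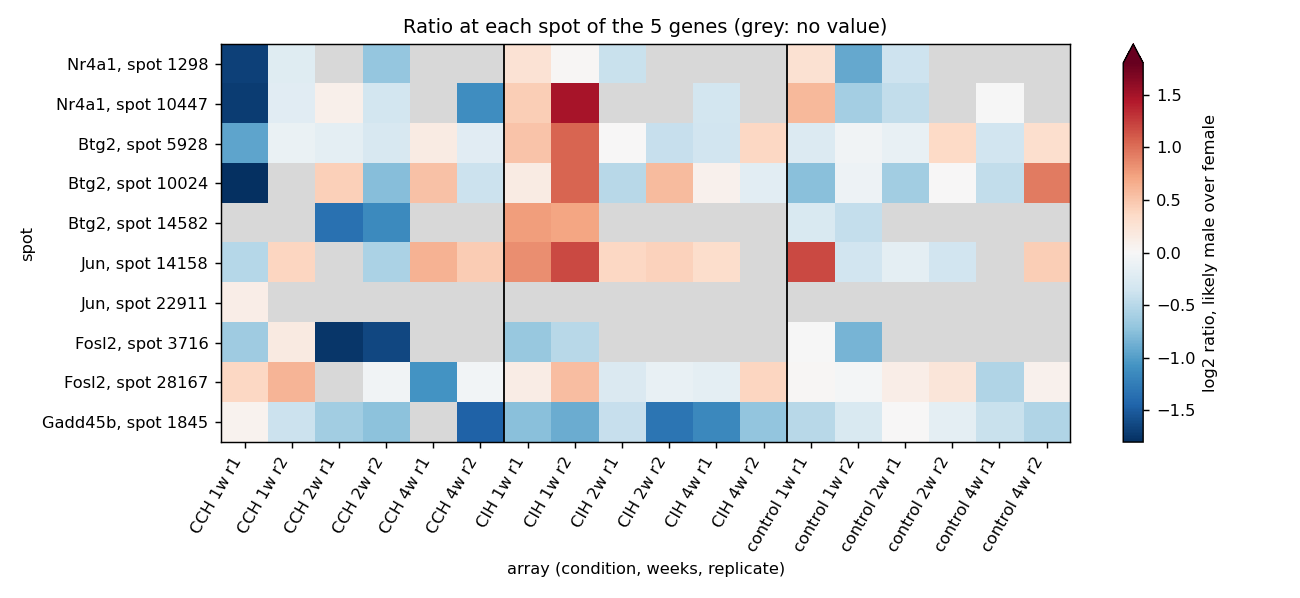
Log2 ratio (likely male over female, colour) at each of the 10 measured spots of the members on each of the 18 arrays, with grey for no value. The 2 Nr4a1 spots follow each other, the 2 Fosl2 spots differ by 0.82 on average over shared arrays, and the Gadd45b row is below 0 on 15 of 17 arrays.

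Set side by side, CCH minus control was below 0 for all 5 members, between -0.57 (Nr4a1) and -0.18 (Jun), and CCH minus CIH was below 0 for all but Gadd45b (0.11 ± 0.18, or -0.04 without CIH 2 weeks replicate 2). Of all units, 57.1% were below 0 in CCH minus control, 55.6% in CCH minus CIH and 50.9% in CIH minus control. Fosl2 was at -0.02 in CCH minus control for the spot with more arrays on its own, and reached -0.13 in CCH minus CIH under an alternative. Jun was at 0.07 in CCH minus control without control 1 week replicate 1. With CIH 1 week replicate 1 regrouped as CCH 2 weeks, Jun was at 0.05. CIH minus control was above 0 for all but Gadd45b, with 0.02 for Fosl2, which kept that sign in 22 of 28 alternatives, and Nr4a1 in 20 of 21, with -0.07 without control 1 week replicate 2. Without CIH 1 week replicate 1, whose labels disagree, CIH minus control was 0.20 for Nr4a1, 0.38 for Btg2, 0.43 for Jun and 0.07 for Fosl2. Without that array CCH minus CIH was -0.77 for Nr4a1, -0.71 for Btg2, -0.61 for Jun, -0.55 for Fosl2 and 0.13 for Gadd45b, so each kept its sign. The median of the members was -0.45 for CCH minus control, 0.13 for CIH minus control and -0.55 for CCH minus CIH, against -0.04, -0.01 and -0.03 over all 10272 units. The first 2 comparisons share the control arrays and the third is the first minus the second, so the 3 are not independent. The members were chosen with these values known. No member passed an adjusted p of 0.05 in any of the 3. The share of all units that passed was 0% for CCH minus control, and 0.00974% (1 unit) for each of CIH minus control and CCH minus CIH, and 649, 1307 and 953 units had an unadjusted p under 0.05.

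**Figure D4:**
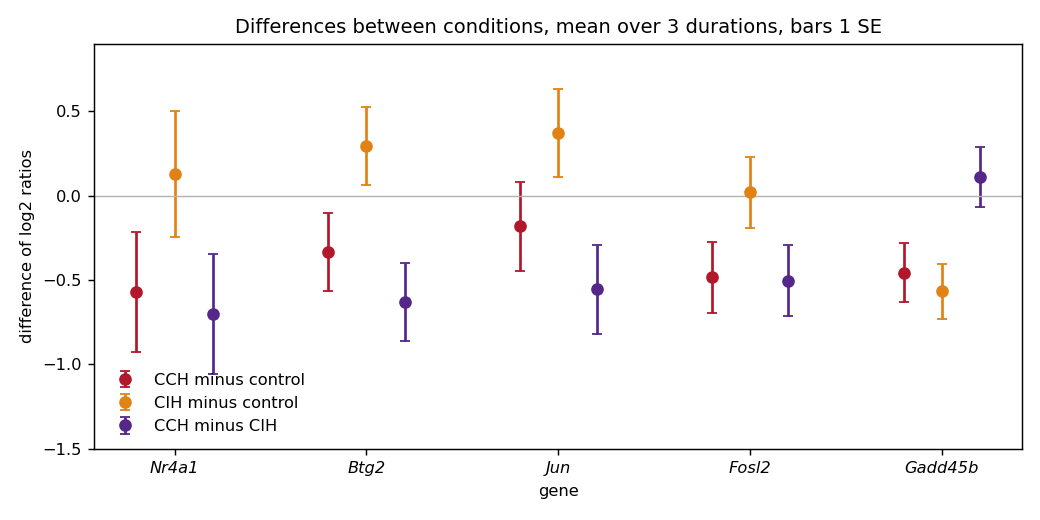
Differences of log2 ratios between conditions for each member, averaged over the 3 durations, with bars of 1 SE from limma's fit. Gadd45b has both hypoxias below control and CCH minus CIH at 0.11, which is -0.04 without CIH 2 weeks replicate 2.

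For 4 weeks minus 1 week the estimates were -0.49 ± 0.18 (SE) for Gadd45b, -0.30 ± 0.36 for Nr4a1, -0.16 ± 0.21 for Fosl2, -0.07 ± 0.26 for Jun and 0.16 ± 0.23 for Btg2. The estimate for Gadd45b was -0.24 with arrays scaled to a common spread. Without 1 array in turn it ran from -0.54 to -0.05 for Nr4a1, and its sign turned for Fosl2 (-0.33 to 0.01), Jun (-0.33 to 0.18) and Btg2 (-0.05 to 0.37). No member was called, nor was any unit (0% of 10272, with 987 units at an unadjusted p under 0.05). In the F test for a hypoxia effect that differs between durations no member was called, against 0% of all units (1332 at an unadjusted p under 0.05). The spread of Nr4a1 over the 6 arrays at 1 week (SD 0.91) was wider than over 4 arrays at 2 weeks (0.27), and Btg2 had an SD of 0.80 at 1 week against 0.33 at 2 weeks.

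Across arrays, Nr4a1, Btg2 and Jun had ratios that correlated with each other. The correlations are descriptions over arrays that share RNA, centring and depth of signal, from 10 pairs of members. Nr4a1 and Jun correlated with Pearson's r 0.72 and Spearman's rho 0.75 (n = 11 arrays), and with r 0.64 without the 2 arrays farthest from the median of Nr4a1. Nr4a1 and Btg2 correlated with r 0.75 and rho 0.42 (n = 13), but r was 0.29 without the 2 farthest arrays, so this relation rests on them. Btg2 and Jun correlated with r 0.55 and rho 0.50 (n = 15; 0.35 without the farthest 2). Fosl2 correlated with no other member beyond r 0.19. Gadd45b ran against Jun (r -0.42, rho -0.54, n = 14) and weakly against Btg2 (r -0.35, rho -0.33, n = 17; -0.06 without the farthest 2). With Nr4a1 it had r -0.20 (rho -0.32, n = 13), which turned to 0.29 without the farthest 2.

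Among the 6 arrays at 1 week, which include CIH 1 week replicate 1, r was 0.91 between Nr4a1 and Jun, 0.85 between Nr4a1 and Btg2 and 0.62 between Btg2 and Jun. Gadd45b ran the other way, with r -0.95 against Nr4a1, -0.95 against Btg2 and -0.82 against Jun. On CCH 1 week replicate 1, where Nr4a1 and Btg2 had their lowest ratios, Gadd45b had its highest (0.07). On CIH 1 week replicate 2, where Nr4a1, Btg2 and Jun had their highest, Gadd45b was at -0.89. Over 2-week arrays Btg2 and Gadd45b had r -0.08 (n = 6). The pairs with Nr4a1 or Jun had fewer than 6 arrays at 2 and at 4 weeks, so no r is given there.

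**Figure D5:**
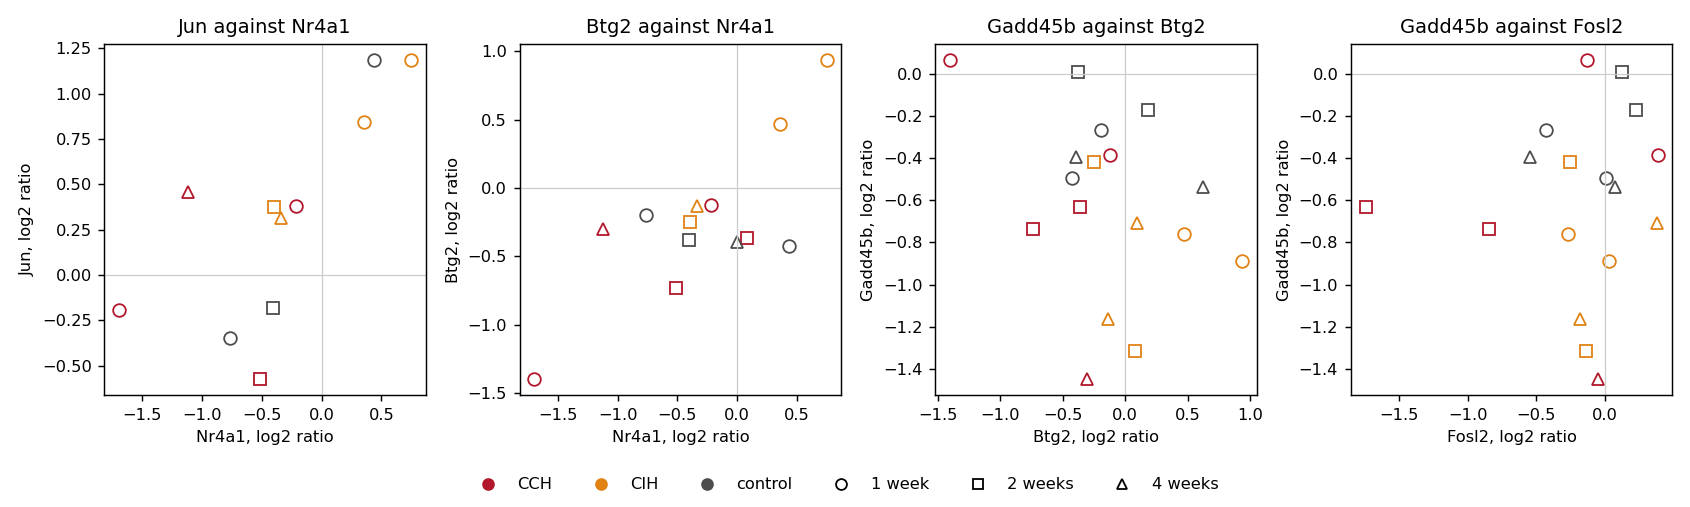
Log2 ratios (likely male over female) of pairs of members on the arrays that measured both, coloured by condition with the marker showing duration. Jun and Btg2 are higher where Nr4a1 is higher. For Btg2 this rests on the 2 arrays farthest from the median of Nr4a1 (r 0.29 without them). CCH 1 week replicate 1 is lowest in Nr4a1 and Btg2, and CIH 1 week replicate 2 is highest in Nr4a1, Btg2 and Jun. Control 1 week replicate 1 is also high in Nr4a1 (0.43) and Jun (1.18) but reads -0.42 in Btg2. Gadd45b is lower where Btg2 is higher among the 1-week arrays and does not follow Fosl2.

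Other early response genes were set beside the members, picked as relatives or partners with values known, in 45 pairs of a gene and a member. Atf3, a stress-induced factor of the AP-1 superfamily, had values on 11 arrays and was not tested. It read -1.55 and -0.37 in CCH hearts at 1 week and -0.77 on 1 array at 2 weeks, 0.88 and 2.63 in CIH hearts at 1 week and -0.40 and -0.34 at 2 weeks, and 1.33 and -0.21 in controls at 1 week, 0.11 at 2 weeks and 0.30 at 4 weeks. Its 3 CCH values were all below its 4 control values and its CIH values at 1 week. Atf3 correlated with Nr4a1 (r 0.91, rho 0.82, n = 9; 0.86 without the farthest 2), Jun (r 0.80, n = 11) and Btg2 (r 0.75, n = 11; 0.33 without the farthest 2). Dusp1, a phosphatase that switches MAP kinases off, correlated with Nr4a1 (r 0.81, rho 0.80, n = 12; 0.64 without the farthest 2) and Jun (r 0.62, n = 14). Fos, the prototype partner of Jun, had r 0.53 with Nr4a1 (n = 13; 0.35 without the farthest 2), but r 0.18 and rho 0.04 with Jun itself (n = 15; r -0.15 without the farthest 2).

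The 2 Gadd45 relatives on the arrays ran apart. Gadd45g, with 12 arrays and no test, averaged 0.38 ± 0.58 in CCH hearts (SD, n = 6), 0.49 ± 0.18 in CIH hearts (n = 2) and 0.11 ± 0.29 in controls (n = 4). Its r with Gadd45b was -0.86 (rho -0.82, n = 11; -0.65 without the farthest 2), and with Jun 0.69 (rho 0.79, n = 11). Of the Btg2 relatives, Btg1 averaged -0.22 ± 0.27 in CCH hearts, 0.01 ± 0.16 in CIH hearts and -0.06 ± 0.49 in controls (n = 6 each), differences smaller than the spread between controls.

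Among 5343 genes with a value on all arrays, those most like each member were found by Pearson's r. For Gadd45b they were Scrn3, of the secernin family (r 0.88, rho 0.91, n = 17), and Tspan8, a tetraspanin membrane protein (r 0.86). For Nr4a1 they were the carboxylesterase gene Ces2e (r 0.84, n = 13) and Ndufs7, a subunit of respiratory complex I (r 0.81). For Jun they were Usp54 (r 0.78, n = 15) and the heat shock protein gene Hspa4 (r 0.76). For Btg2 they were Hcfc2 (r 0.69, n = 18) and Ergic2 (r 0.67). For Fosl2 they were Fcgbp (r 0.78, n = 18), with rho 0.37 and r 0.34 without the farthest 2, and Tmem222 (r 0.76).

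The mean of the 5 members was followed most closely by Rab1b, a GTPase of transport out of the endoplasmic reticulum (r 0.64), and Abra, an actin-binding protein of striated muscle (r 0.63, or 0.37 without the farthest 2). Cpeb4, which controls polyadenylation in the cytoplasm (r 0.62), the deubiquitinase gene Otud1 (r 0.61) and Klhl9 (r 0.58) came next, all over 18 arrays. Scrn3 averaged -0.70 ± 0.77 in CCH hearts, -0.65 ± 0.40 in CIH hearts and -0.06 ± 0.26 in controls (SD, n = 6 each). Both hypoxia means were below control, as for Gadd45b. This is no separate result, since Scrn3 was picked by its likeness to Gadd45b on the same arrays.

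Ddit3, the transcription factor of endoplasmic reticulum stress known as Chop, stood 4th in likeness to Gadd45b (r 0.82, rho 0.78, n = 17; 0.71 without the farthest 2). In CCH hearts it was 0.35 and -0.27 at 1 week, -0.47 and -0.36 at 2 weeks and -0.79 and -1.48 at 4 weeks. In CIH hearts it was -0.43 and -0.36 at 1 week, -0.16 and -0.67 at 2 weeks and -0.76 and -0.08 at 4 weeks. In controls it was -0.29 and -0.41 at 1 week, -0.01 and 0.23 at 2 weeks and 0.43 and -0.53 at 4 weeks. All 6 CIH arrays were below 0, as for Gadd45b, and the conditions overlapped. Over all arrays the ratio of Ddit3 was -0.34 (limma adjusted p = 0.00805, below 0 on 15 of 18 arrays). Its CIH minus control was -0.31 (adjusted p = 0.478), or -0.30 without CIH 1 week replicate 1, and its CCH minus control -0.40 (adjusted p = 0.749).

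Ccn1, a secreted matrix protein and early response gene, stood 3rd in likeness to Jun (r 0.74, rho 0.83, n = 15; 0.72 without the farthest 2). It averaged 0.43 ± 0.42 in CCH hearts, 0.34 ± 0.34 in CIH hearts and 0.31 ± 0.45 in controls (SD, n = 6 each), with no gap between conditions beyond the spread. Over all arrays its ratio was 0.36 (limma adjusted p = 0.00318, above 0 on 16 of 18 arrays).

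The wider pathway was read from 6 lists, drawn up with earlier results known. Their counts are of genes that passed in the mean ratio over all arrays, where 27.7% of all units did. Of 14 tested immediate early transcription factors, 1 had a ratio above 0 and 2 below. Myc, a growth-promoting factor, was at 0.43 (limma adjusted p = 0.00546) and the small Maf factor gene Maff at -0.21 (adjusted p = 0.0292). Fosl2 was the other. With the members left out, 9.09% of 11 such factors passed below 0, against 18.7% of all units. Among 13 tested AP-1 partners and upstream factors 3 were above and 3 below. Elk4, a partner of Srf, was at 0.24 (adjusted p = 0.00364), Atf4, the factor of the integrated stress response, at 0.23 (adjusted p = 0.0273), Mrtfa, an actin-regulated cofactor of Srf, at -0.41 (adjusted p = 0.00488), and Mafg at -0.16 (adjusted p = 0.0239). The first list had a median of -0.08 and the second of 0.01, against -0.04 over all units.

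Of 14 tested feedback inhibitors, 1 was above and 2 were below. Spry1, which restrains receptor tyrosine kinase signals, was at 0.22 (adjusted p = 0.0163). Dusp1 was at -0.22 (adjusted p = 0.025) and Nfkbia, the inhibitor of NF-kB, at -0.21 (adjusted p = 0.0257). The circadian repressor gene Per1, at -0.17, did not pass (adjusted p = 0.0625). Of 17 tested growth arrest and DNA damage genes, 4 were below and 0 above. They were the member Gadd45b, Ddit3, the mTOR inhibitor gene Ddit4l (-0.28, adjusted p = 0.0292) and the cell cycle inhibitor gene Cdkn1a (-0.20, adjusted p = 0.0442). With the members left out, 20% of 15 growth arrest genes passed below 0, near the 18.7% of all units. The list medians were -0.01 for feedback inhibitors and -0.09 for growth arrest genes.

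Of 20 tested MAP kinase cascade genes, 3 were above and 6 below. Map3k3, a kinase at the top of the cascade, was below 0 on 18 of 18 arrays (-0.33, adjusted p = 0.00127). Mapk14, the p38 alpha kinase, was at -0.26 (adjusted p = 0.0102), Map2k2, which activates Erk, at -0.16 (adjusted p = 0.0191) and Mapk6, an atypical Erk, at 0.26 (adjusted p = 0.00744). Of 6 tested secreted and effector genes, Ccn1 was above and Odc1, the first enzyme of polyamine synthesis, below (-0.16, adjusted p = 0.0431). Adamts1 (0.13, adjusted p = 0.146) and Lif (0.04, adjusted p = 0.511) did not pass. None of the 6 lists had a gene called in CCH minus control, CIH minus control, CCH minus CIH, 4 weeks minus 1 week or the F test by limma.

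With the members left out, the genes below 0 in CCH minus CIH were 9 of 11 immediate early factors, 11 of 13 AP-1 partners, 11 of 14 feedback inhibitors, 11 of 15 growth arrest genes, 14 of 20 MAP kinase genes and 3 of 6 effector genes, against 55.6% of all units. With members, the list medians were -0.16, -0.15, -0.09, -0.19, -0.03 and 0.03 in that order, against -0.03 over all units. In CIH minus control they were 0.07, 0.22, 0.07, 0.07, -0.02 and 0.01, against -0.01 over all units. In CCH minus control, members left out, 54.5%, 38.5%, 64.3%, 60%, 40% and 33.3% of the lists were below 0 in that order, against 57.1% of all units. Of the marker lists with more than 1 tested gene, the shares below 0 in CCH minus CIH ran from 25% (red cell) to 80% (heart muscle). The 6 pathway lists were drawn up with earlier results known, and none of their genes passed in any of these comparisons.

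Markers of other cell types moved with some of these ratios, and their part in the results was not tested. The median ratio of 15 red cell markers ran from -1.31 to 0.95 in CCH hearts, from -1.72 to 0.12 in CIH hearts and from -0.28 to 0.85 in controls, and correlated with Gadd45b (r 0.47, n = 17). The red cell gene Rhag stood 32nd in likeness to Gadd45b (r 0.76). The median ratio of 20 leukocyte and macrophage markers ran from -0.61 to 0.05 in CCH hearts, from -0.66 to -0.14 in CIH hearts and from -0.67 to 0.11 in controls, and correlated with Gadd45b (r 0.55, n = 17), Jun (r -0.50, n = 15) and Nr4a1 (r -0.47, n = 13). Over all arrays 7 of 13 tested leukocyte markers were called below 0 and none above (limma, 13 of 13 with a ratio below 0), where 18.7% of all units were called below 0 and 59.3% had a ratio below 0. The 3 lung markers correlated with Nr4a1 (r -0.69, rho -0.41, n = 13), and 8 heart muscle markers with Jun (r 0.50, n = 15). Endothelial, fibroblast and skeletal muscle lists had r between -0.20 and 0.35 with each member.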

How the data were processed

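The authors deposited log2 ratios of the red and green channels, scaled so that the linear ratio averages 1 on each, as read from the values. The authors' background correction, spot filter and normalization are not given in the sources used here. Arrays had values at 12650 to 24512 spots, and the number of arrays limits the precision. Of 28704 spots, 18511 carried 1 symbol, 937 several and 9256 none, per the platform annotation.

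Arrays were centred on their median and spots of a symbol averaged, so the spots behind a gene mean can differ between arrays. Units with a value in each of the 9 groups (10272) entered limma (version 3.58.1, R 4.3.3; 9 group means, contrasts, eBayes with prior degrees of freedom 5.95 and prior SD 0.269). Tests were two-sided at a threshold of 0.05 after Benjamini-Hochberg adjustment over all units. The fit was tested on simulated data. Comparisons were CCH minus control, CIH minus control, CCH minus CIH, 4 weeks minus 1 week, the mean over all groups and an F test of the hypoxia effect by duration. A gene's missing arrays were left out of its fit. Arrays counted as lower or higher are set against the mean of the other condition at that duration.

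The named genes were the 5 members with each spot, from each pathway list up to 4 tested genes with the smallest p over all arrays, the 5 genes most like the mean of the members and the 2 most like each, and Eif2s3y. Rhag, Atf3, Gadd45g, Btg1 and Fos were named after their values were seen. The members and lists were chosen with earlier results of these data known. Alternatives changed the centring, scaling, spot averaging, missing-value filter, the group of CIH 1 week replicate 1 and terms of the fit, and left out each array in turn. The code of control 2 weeks replicate 1 names week 1 while its title says 2 weeks, so it was kept at 2 weeks. Promoters are RefSeq sequences, found for 5 of 5 members. Letters in the titles gave replicate numbers, and 2 CCH arrays without a letter took number 1. Figures were drawn with matplotlib 3.10.9.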

Additional observations from a re-analysis of the deposited data

Results flagged for a closer look

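Btg2, Jun and Fosl2 changed sign between durations, with both arrays on one side of the control mean at one duration and on the other side at another. The F test of the hypoxia effect by duration, which takes in both kinds of hypoxia, called none of these genes. Single differences between durations were not tested on their own. Btg2 was higher in CIH than in control hearts by 1.01 on the log2 scale at 1 week, and the difference was -0.14 at 4 weeks. Without CIH 1 week replicate 1 the first value was 1.25. Jun had CCH minus control of -0.32 at 1 week and 0.0932 at 4 weeks, where 1 control array was measured. Fosl2 had CCH minus control of 0.34 at 1 week and -1.47 at 2 weeks in the gene mean. At 2 weeks the lower of its 2 spots had values on the CCH arrays only, and CCH replicate 1 rests on it alone. At the other spot, the 1 CCH array measured at 2 weeks read -0.06, against 0.12 and 0.22 in controls. Fosl2 had CIH minus control of -0.37 at 2 weeks and 0.34 at 4 weeks. Of 15 sets of arrays of a member in a condition, 0 held an array far from the others by Dixon's test, where chance gives about 1 in 20.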

How the results depend on the processing

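The count of called units depended on the setting for 2 of the contrasts between conditions. For CIH minus control, 1 unit became 192 without centring, 0 with arrays scaled to a common spread, 115 with the median of the spots, 199 with each spot on its own, 109 with units measured on all arrays, 170 with the letters as a replicate block and 0 with additive terms. For CCH minus CIH, 1 unit became 0 with scaled spread, with each spot on its own and with additive terms. The letters do not pair the arrays (36 pairs, r -0.54 to 0.45, 14 over 0.1), and the block left 2738 units called over all arrays. Leaving out 1 array gave 1981 to 3178 units over all arrays, 0 to 1 for CCH minus control, 1 to 305 for CIH minus control, 0 to 196 for CCH minus CIH, 0 to 1 for 4 weeks minus 1 week and 0 to 1 for the F test. For CIH minus control the count was 305 without control 2 weeks replicate 1, 254 and 251 without CCH 2 weeks replicate 1 and 2, 207 without CIH 1 week replicate 2 and 89 without CIH 4 weeks replicate 2. For CCH minus CIH it was 196 without CCH 2 weeks replicate 1. No member was called in a contrast between conditions under any of these alternatives. The Fosl2 mean over all arrays reversed to 0.0057 with each spot on its own, and its CCH minus control moved to -0.02. The r of Nr4a1 and Btg2 moved to 0.29 without the 2 farthest arrays. Leaving out 1 array gave 0 to 4 called immediate early factors, 2 to 6 AP-1 partners, 1 to 5 feedback inhibitors, 2 to 5 growth arrest genes, 5 to 9 MAP kinase genes and 1 to 2 effector genes. The cause of these changes was not tested. Limits are 2 arrays per group, gaps in Nr4a1 and Jun, single spots for Gadd45b and Jun, and an inferred direction of the ratio. Eif2s3y did not give that direction on CIH 4 weeks replicate 1.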
